A study of Mus musculus with 6 samples.

Results

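The enzymes that write and erase DNA methylation were followed here in mouse osteoclast precursors. The members are 7 genes chosen by name, namely Dnmt1, Dnmt3a, Dnmt3b, Uhrf1, Tet1, Tet2 and Tet3, and each matched 1 of the 24940 gene rows of the deposited table. The cells were bone marrow-derived macrophages (BMMs), which are grown from marrow with the survival factor M-CSF and turn into osteoclasts when RANKL is added. Every culture was kept for 3 days in 30 ng/mL M-CSF. The -R cultures received nothing else, the +R cultures also received RANKL at 100 ng/mL, and the R+LE cultures received that RANKL together with 10 μg/mL of LE, a methanol extract of Abeliophyllum distichum leaves. Each condition was sequenced as 2 libraries, 6 in all. The sample labels give C57BL/6 mice of 6 to 8 weeks, whereas the study's methods give male ICR mice of 6 to 7 weeks, and neither says whether the libraries of a condition came from separate mice, so p-values measure the spread between these libraries, which may be technical.

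Cytosine methylation at CpG sites is a heritable repressive mark. Dnmt3a and Dnmt3b place it on unmethylated DNA, Dnmt1 copies it onto the daughter strand after replication, and Uhrf1 recognizes the half-methylated site and brings Dnmt1 to it. The TET enzymes oxidize 5-methylcytosine, which leads to its removal, and they need iron and 2-oxoglutarate to do so. In osteoclast precursors Dnmt3a is known for silencing anti-osteoclastogenic genes such as Irf8, a transcription factor gene of monocytes.

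The libraries held 29390214 to 34846381 mapped reads, a depth recovered from the steps between low values, and 74.2% to 80.7% of them lay on genes. The ribosomal RNA precursor Rn45s made up 4.97% to 6.83% of gene reads without RANKL and 10.9% to 13.5% with it, and with Rn45s taken out of the depth the same members passed the test. Values are in RPKM, which is the number of reads on a transcript divided by its length in kilobases and by the mapped reads of the library in units of 1000000, so levels of different genes can be set side by side. Markers of macrophages and their precursors (6 of 6 genes above 0) summed to 1579 to 1670 RPKM in -R, 1115 to 1235 in +R and 954 to 1130 in R+LE. The 9 osteoclast markers summed to 43.4 to 45.0 RPKM in -R, 1894 to 2161 in +R and 340 to 393 in R+LE. The other marker lists were low. B cell markers (6 of 6 above 0) summed to 1.57 to 1.96 RPKM in -R and at most 0.167 elsewhere, T cell markers (5 of 6, with Cd3e at 0) to at most 0.927, and erythroid markers (1 of 6 above 0, the globin genes being listed at 0) to at most 0.124. Neutrophil markers (7 of 7) summed to 15.6 to 17.3 RPKM in -R and at most 2.53 elsewhere, almost all from S100a8 and S100a9. Progenitor and mast cell markers (4 of 5, with Cpa3 at 0) summed to 12.0 to 13.5 RPKM in -R and at most 2.82 elsewhere, almost all from Cd34. Stromal markers (7 of 7) lay between 9.004 and 18.0 RPKM, dendritic cell markers (5 of 5) between 3.12 and 7.78, and endothelial markers (4 of 4) between 0.650 and 2.39. Their part in the results was not tested.

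The Dnmt3a row covers the short transcript, which starts inside the gene at chr12:3891744 and runs to 3914443 on the plus strand of mm10, 84714 bases downstream of the start of a long coding transcript. In the GENCODE models of the same genome, 97.8% of the exonic bases of the short transcript are also exonic in that long one, so the row measures both and cannot separate them. The deposited length of the row was 8893 bases, against 5424 exonic bases in the GENCODE model. The Dnmt1 row (chr9:20907206-20959888, minus strand) likewise shares 97.0% of its exonic bases with a transcript that starts 7265 bases further in, and the Uhrf1 row (chr17:56304313-56323486, plus strand) 97.6% with one that starts 992 bases upstream. No exonic base in the GENCODE models of the 7 transcripts is shared with another GENCODE gene on either strand. For Dnmt3a that model is shorter than the deposited length, so the remainder of its row was not checked for such overlap.

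The start regions of Dnmt3a, which changed most below, and of Uhrf1 and Dnmt1, which serve replication, are shown for the short motifs found in them. Each is a RefSeq window of GRCm38.p6 (the same assembly as mm10) from 250 bases before a transcript start to 50 after it. Capitals mark matches to 3 forms of the E2F site of cell cycle genes (TTTCGCGC, TTTGGCGC and TTTCCCGC), to the E-box CACGTG and to the AP-1 site TGAGTCA, each searched on both strands. The Dnmt3a window is that of the short transcript (chr12:3891494-3891793, plus strand). The Uhrf1 window is that of the row's own start (chr17:56304063-56304362, plus strand), and the Dnmt1 window that of the innermost start (chr9:20952574-20952873, minus strand).

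Dnmt3a: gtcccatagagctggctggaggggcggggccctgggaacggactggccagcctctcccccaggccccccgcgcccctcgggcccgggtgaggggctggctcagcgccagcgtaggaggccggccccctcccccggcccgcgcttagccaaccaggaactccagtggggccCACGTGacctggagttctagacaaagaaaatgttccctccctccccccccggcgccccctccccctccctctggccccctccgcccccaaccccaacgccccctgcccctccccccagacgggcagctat

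Uhrf1: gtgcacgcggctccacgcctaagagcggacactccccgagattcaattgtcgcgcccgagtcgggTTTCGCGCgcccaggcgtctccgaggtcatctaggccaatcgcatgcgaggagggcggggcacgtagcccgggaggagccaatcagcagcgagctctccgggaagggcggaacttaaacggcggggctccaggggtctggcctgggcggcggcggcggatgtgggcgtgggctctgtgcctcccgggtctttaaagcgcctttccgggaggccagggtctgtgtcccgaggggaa

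Dnmt1: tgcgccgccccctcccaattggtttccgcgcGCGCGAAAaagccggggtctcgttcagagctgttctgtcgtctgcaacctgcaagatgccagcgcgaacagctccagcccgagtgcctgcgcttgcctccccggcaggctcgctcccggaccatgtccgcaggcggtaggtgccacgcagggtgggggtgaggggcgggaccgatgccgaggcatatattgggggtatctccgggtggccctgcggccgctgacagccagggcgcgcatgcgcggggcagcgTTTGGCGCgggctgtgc

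The Uhrf1 window held 1 E2F site and the Dnmt1 window 2, while 1.84% of all 32817 windows hold any of the 3 forms. The Dnmt3a window held an E-box, which is palindromic and is found in 7.15% of windows, and no E2F or AP-1 site. None of the 5 motifs was found in the windows of Dnmt3b, Tet1, Tet2 and Tet3, in the other 2 windows of Dnmt1 and of Dnmt3a, or in the other window of Uhrf1. The AP-1 letters are found in 5.20% of all windows. CpG counts also differed. The window of Tet2 held 57 CpG sites, more than in 99.85% of all windows, the windows at the long Dnmt3a start held 46 and 47, and that of the short Dnmt3a transcript held 18, against a median of 7. The windows of Uhrf1 and Dnmt1 shown here held 33 each, and the window at the start of the Dnmt1 row itself held 2. A match of letters is a description and not a sign of binding.

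Of the 7 genes, 6 averaged 0.5 RPKM or more and were tested, and Tet1 was not. The test was limma on log2(RPKM + 0.5), with p-values adjusted by Benjamini-Hochberg over 11595 genes. With 2 libraries against 2, an exact permutation test of 1 gene cannot give a two-sided p under 0.33, and limma also draws on the spread of the other genes. In +R against -R, 3 of the 6 passed an adjusted p of 0.05, all higher in +R, beside 45.4% of all genes tested in either direction and 23.9% higher. Of these, Dnmt3a and Tet2 rose by at least 2-fold on this scale, a rule met by 6.58% of genes tested. In R+LE against +R, 1 of the 6 passed, beside 12.0% of all genes, and this was Dnmt3a, which fell by more than 2-fold, as 1.78% of genes did. In R+LE against -R, 3 of the 6 passed, all higher in R+LE, beside 34.3% of all genes in either direction and 15.3% higher. None of these 3 reached 2-fold on this scale. With RANKL the share of members that passed in either direction was close to that of all genes, and 6 genes are too few to set the group apart, so what follows describes single genes. The 3 comparisons share libraries and are not independent. As these are bulk cultures, more cells of a type and more RNA per cell cannot be told apart.

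**Figure D1:**
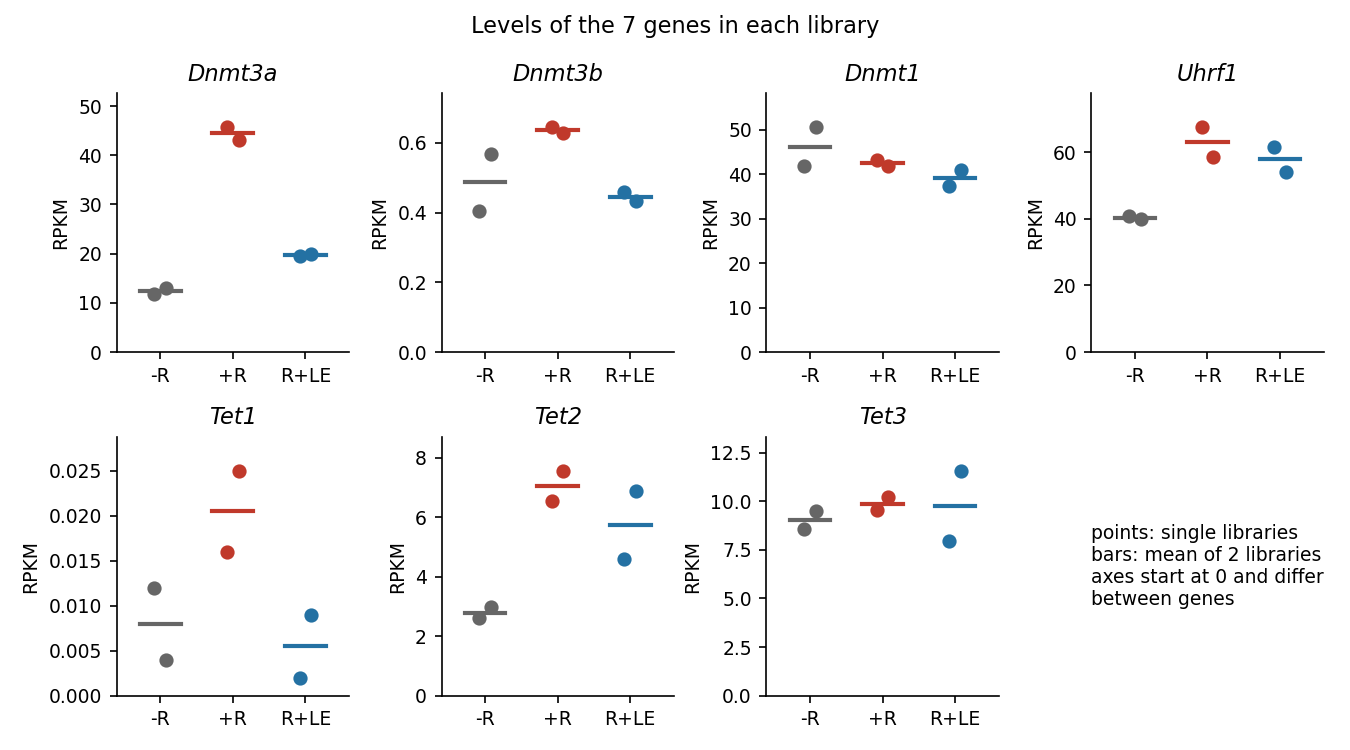
RPKM of each gene in each library (points) with the mean of the 2 libraries of a condition (bars). The axes start at 0 and differ between genes. Dnmt3a stands apart in all 3 conditions, at 12.4, 44.4 and 19.7 RPKM on average in -R, +R and R+LE, while the 2 libraries of R+LE spread widely for Tet2 and Tet3.

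Dnmt3a, the main de novo methyltransferase of blood cells, had the largest change of the 6 in both steps. The -R libraries gave 11.9 and 13.0 RPKM, the +R libraries 45.7 and 43.2, and the R+LE libraries 19.5 and 19.9. Every library of a condition lay apart from every library of the other conditions. The means were 12.4 ± 0.788, 44.4 ± 1.78 and 19.7 ± 0.230 RPKM (SD, n = 2 each), so that the level was 3.58-fold higher in +R than in -R and 2.26-fold lower in R+LE than in +R. RANKL gave a log2 fold change of 1.80 (SE 0.13, limma adjusted p = 3.90e-08), and LE added to it gave -1.15 (adjusted p = 3.73e-05). In R+LE it was still 1.59-fold above -R (log2 fold change 0.65, limma adjusted p = 0.00163). Among the genes tested, its level rose from percentile 62.6 in -R to 89.4 in +R and stood at 76.0 in R+LE. The summed osteoclast markers, given above, were also highest in +R and lowest in -R, and their relation to Dnmt3a was not tested.

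Dnmt3b, the other de novo enzyme, was expressed at a trace. It lies on chr2:153649449-153687730 (plus strand) and held 47 and 78 reads without RANKL, 78 and 76 with RANKL alone, and 57 and 52 with LE, which is 0.406 to 0.645 RPKM. Both +R libraries lay above all others, but by a small margin over the higher -R library. The log2 fold change was 0.21 with RANKL (95% interval -0.27 to 0.69) and -0.27 with LE (-0.74 to 0.21), with adjusted p-values of 0.472 and 0.562 in limma. In R+LE against -R it was -0.06 (-0.53 to 0.42), a sign that turned without -R replicate 2. The mean of Dnmt3b reached 0.5 RPKM, the filter on low values, in +R alone. Since the scale compresses genes at this level, the interval with LE leaves room for a fall in proportion to that of Dnmt3a. The interval with RANKL ends at 0.69, short of a rise in proportion to that of Dnmt3a on this scale.

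Dnmt1, the maintenance enzyme, was the most abundant methyltransferase transcript in -R and in R+LE. Its -R libraries read 41.8 and 50.6 RPKM, its +R libraries 43.1 and 41.9, its R+LE libraries 37.3 and 40.8. The -R libraries enclosed the +R libraries, and the R+LE libraries were the lowest. Neither change passed the test, with a log2 fold change of -0.11 with RANKL (95% interval -0.42 to 0.20, limma adjusted p = 0.563) and -0.12 with LE (-0.44 to 0.19, adjusted p = 0.709). The sign of the first rested on the -R library of replicate 2, without which it was 0.03. R+LE against -R gave -0.23 (-0.55 to 0.08, adjusted p = 0.240).

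Uhrf1, the partner that guides Dnmt1 to newly replicated DNA, rose with RANKL. Without RANKL it stood at 40.7 and 40.0 RPKM, with RANKL at 67.4 and 58.5, and with RANKL and LE at 61.6 and 54.1. All 4 libraries with RANKL lay above both without it, whereas those with RANKL alone and with LE were interleaved. The log2 fold change was 0.63 with RANKL (SE 0.15, limma adjusted p = 0.00241), which is 1.56-fold in means. With LE it was -0.12 (95% interval -0.43 to 0.19, adjusted p = 0.713). R+LE was 1.43-fold above -R (log2 fold change 0.51, limma adjusted p = 0.0136), and this call was lost without -R replicate 1 (0.53, adjusted p = 0.0959) or -R replicate 2 (0.50, adjusted p = 0.106).

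Tet2, an oxidizing enzyme often mutated in myeloid disease, rose with RANKL and remained raised with LE. On chr3:133463677-133544390 (minus strand), its levels were 2.605 and 2.97 RPKM without RANKL, 6.54 and 7.57 with it, and 4.58 and 6.895 once LE was present too. Both -R libraries lay below the other 4, and the R+LE libraries spread from well below to within the range of +R. The mean was 2.53-fold higher in +R than in -R, with a log2 fold change of 1.20 (SE 0.18, limma adjusted p = 4.82e-05). The change with LE was -0.30 (95% interval -0.67 to 0.08, limma adjusted p = 0.351). This value rested on single libraries, being -0.03 (adjusted p = 0.943) without R+LE replicate 1, -0.57 (0.0584) without R+LE replicate 2 and -0.20 (0.739) without +R replicate 2. R+LE was 2.06-fold above -R (log2 fold change 0.90, limma adjusted p = 0.000939).

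Tet3 was the most abundant TET transcript in every library. On chr6:83362374-83441678 (minus strand), it measured 8.58 and 9.47 RPKM without RANKL, 9.52 and 10.2 with it, and 7.94 and 11.6 with LE as well. The R+LE libraries enclosed the other 4. The log2 fold change was 0.12 with RANKL (95% interval -0.23 to 0.47, limma adjusted p = 0.571) and -0.04 with LE (-0.39 to 0.31, adjusted p = 0.936). The sign of the latter turned with median centring (0.01), with quantile normalization (0.02), without +R replicate 2 (0.01) and without R+LE replicate 1 (0.22). R+LE against -R gave 0.08 (-0.27 to 0.44, adjusted p = 0.732), which turned to -0.17 without R+LE replicate 2.

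Tet1, a TET enzyme known from embryonic stem cells, was close to 0. Its row (chr10:62804570-62887324, minus strand, 14339 bases) held 5 and 2 reads without RANKL, 7 and 11 with RANKL alone, and 1 and 4 with LE. The exact 95% Poisson interval, which covers counting error only, was 5.49 to 19.7 reads for the highest library and 0.0253 to 5.57 for the lowest. The level was at most 0.025 RPKM, so no comparison was made.

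**Figure D2:**
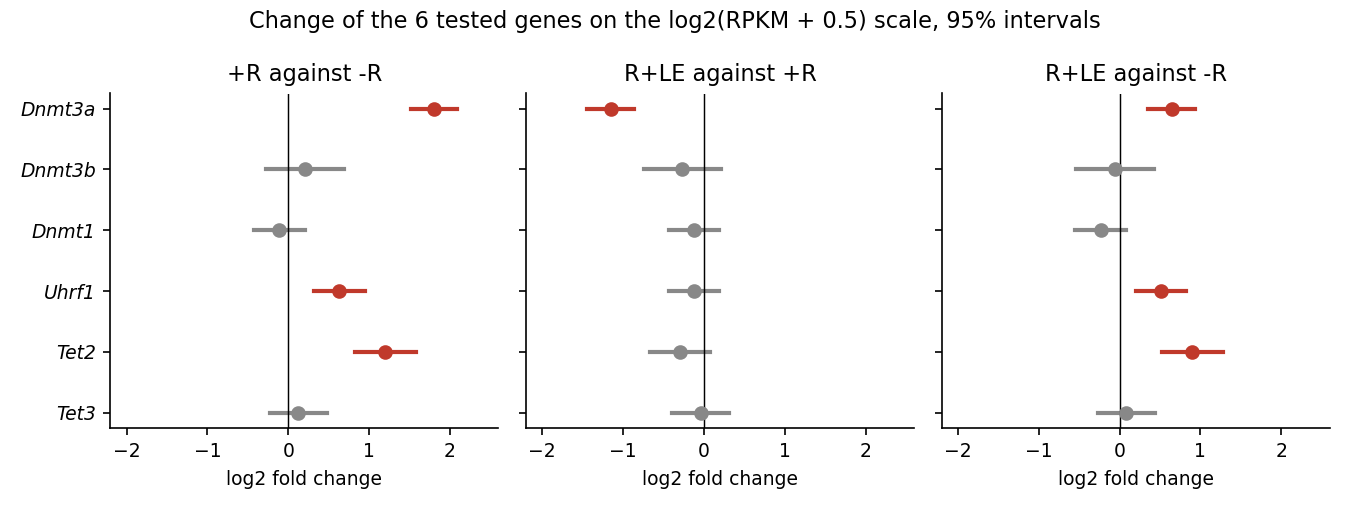
Log2 fold change (x axis) of the 6 tested genes in the 3 comparisons, on the log2(RPKM + 0.5) scale. Lines are 95% intervals from limma, and red marks an adjusted p below 0.05. Dnmt3a is the member past the threshold in all 3 panels, Uhrf1 and Tet2 in those against -R.

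The make-up of each enzyme family followed from these levels. Of the summed RPKM of the 3 methyltransferases, Dnmt3a took 21.9% and 20.2% without RANKL, 51.1% and 50.4% with RANKL alone, and 34.1% and 32.5% with LE. Dnmt1 took 77.3% and 78.9%, then 48.2% and 48.9%, and then 65.1% and 66.8%. Per deposited length, the ratio of Dnmt3a to Dnmt1 was 1.06 and 1.03 with RANKL alone, against 0.284 and 0.256 without RANKL, while LE gave 0.524 and 0.486. Dnmt3b never exceeded 0.886%. These levels depend on the length of the Dnmt3a row, which is longer than its GENCODE model. Per GENCODE exonic length, a setting chosen after seeing the data, the share of Dnmt3a was 29.5% to 31.7% in -R, 62.6% to 63.3% in +R and 44.3% to 46.1% in R+LE. Its ratio to Dnmt1 was then 1.75 and 1.70 with RANKL alone. The reads remained those counted over the deposited length, so reads outside the shorter model would make these values too high. A new length scales a gene by the same factor in every library, so it could not change the order of the conditions in the ratio of Dnmt3a to Dnmt1.

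Among the TET enzymes, Tet2 took 23.3% and 23.8% without RANKL, 40.7% and 42.5% with RANKL alone, and 36.6% and 37.3% with LE. Tet3 stood at 3.29 and 3.19 times the level of Tet2 without RANKL, at 1.46 and 1.35 times with RANKL alone, and at 1.73 and 1.68 times with LE. Although the R+LE libraries disagreed on the level of both genes, they agreed on this ratio, which lay between those of the other conditions. The summed methyltransferases stood at 4.83 and 5.15 times the summed TET enzymes without RANKL, 5.56 and 4.82 times with RANKL alone, and 4.57 and 3.31 times with LE. The -R and +R libraries overlapped in that ratio, and both R+LE libraries lay below them, all per deposited length. Because the sum includes Dnmt3a, this order depends on the length taken for that row. It is not given per GENCODE length. Shares were not tested.

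**Figure D3:**
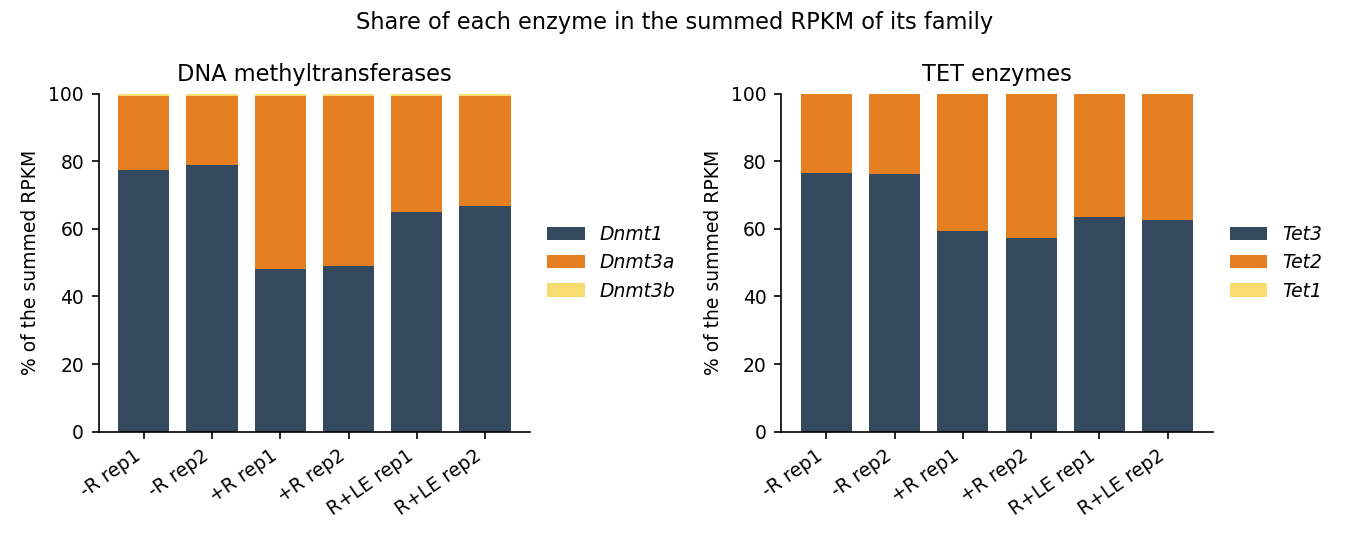
Share of each gene (in % of the summed RPKM of its family, y axis) in each library, for the methyltransferases at the left and the TET enzymes at the right. Dnmt3a grows from 20.2% to 21.9% in -R to 50.4% to 51.1% in +R, and Tet2 from 23.3% to 23.8% to 40.7% to 42.5%.

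The genes whose course over the 6 libraries lay nearest to a member were found by the root mean square difference of centred log2(RPKM + 0.5) values among the 11594 other genes tested. For Dnmt3a these were Camk2a (0.06 log2 units), Epn2 (0.08) and Hbegf (0.08). They were low in every condition, reaching on average 1.38, 3.91 and 2.90 RPKM in +R, so that their true folds were larger than on this scale. For Uhrf1 they were Rnmt, Tomm7 and Ppia (0.03 each). For Tet2 they included Bcl3 (0.07) and Nfkbid (0.11). Bcl3 and Nfkbid encode IκB-like nuclear proteins. The distances are a description over 6 libraries in 3 conditions.

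Irf8, the gene that Dnmt3a is known to silence, ran opposite to Dnmt3a. Its -R libraries held 66.9 and 65.2 RPKM, against 4.07 and 5.21 for +R, while R+LE had 7.88 and 6.755. The conditions did not overlap. Irf8 fell by 14.2-fold with RANKL (log2 fold change -3.70, limma adjusted p = 4.12e-11) and rose 1.58-fold when LE was added (0.61, adjusted p = 0.0128). In R+LE it was still far below -R (log2 fold change -3.09, adjusted p = 6.98e-10). No methylation was measured here, and whether the course of Irf8 depends on that of Dnmt3a was not tested.

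**Figure D4:**
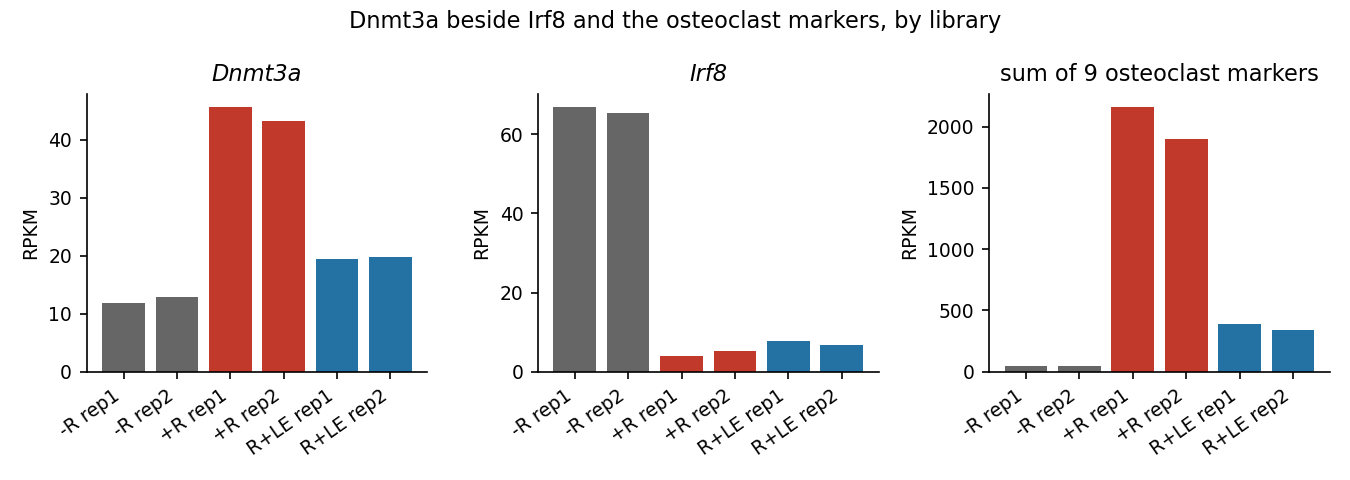
RPKM of Dnmt3a, of Irf8 and of the 9 osteoclast markers summed (y axes from 0), 1 bar per library. Dnmt3a is highest and Irf8 lowest in the +R libraries, where the markers sum to 1894 to 2161 RPKM.

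Around the members, 8 lists of genes were read in the same fit. Their counts stand beside 23.9% of all genes tested that rose and 21.5% that fell with RANKL (45.4% in all), and 5.19% that rose and 6.86% that fell with LE (12.0% in all). Partners of maintenance methylation gave 12 tested genes, of which 3 rose and 2 fell with RANKL, a share close to the 45.4% of all genes, and the median log2 fold change was 0.04, beside 0.05 over all genes tested. With LE 0 of the 12 passed in limma, and 0 had an unadjusted p below 0.05 or passed with voom on the recovered reads. Cbx5, a heterochromatin protein gene, rose from 14.3 to 32.0 RPKM. Pcna, the replication clamp, fell from 409 to 162 RPKM, and Daxx, a histone chaperone gene, from 21.7 to 9.38 RPKM (adjusted p at most 1.11e-05 for the 3 in limma). Of the partners of de novo methylation, 9 were tested. Of these, Morc2a fell with RANKL (log2 fold change -0.50, adjusted p = 0.0154) and Nsd2, a histone methyltransferase gene, fell with LE (-0.46, adjusted p = 0.0474), and no other passed in either comparison. Dnmt3l, the inactive cofactor of the de novo enzymes, lay below the filter. It held 31 and 36 reads without RANKL, 2 and 4 with RANKL alone, and 17 and 8 with LE, the reverse order of Dnmt3a, and was not tested. Several marker lists named above, those of B cells, neutrophils and progenitors among them, were also highest in -R, and their part in the Dnmt3l reads was not tested.

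Since Dnmt1 and Uhrf1 serve replication, the cell division genes are given beside them. Of 24 tested, 12 rose and 3 fell with RANKL, beside 23.9% and 21.5% of all genes, at a median of 0.40 on the log2 scale, and 2 rose and 0 fell with LE, beside 5.19% and 6.86%, with a median of 0.04 (all genes -0.05). Mki67, a proliferation marker, rose from 28.7 to 75.9 RPKM with RANKL and was 72.3 with LE. Bub1, of the mitotic checkpoint, rose from 7.53 to 20.3 RPKM and was 20.5 with LE. E2f2 and Ccne1, which act at the entry to S phase, went the other way. E2f2 fell from 8.95 to 3.44 RPKM and rose to 6.88 with LE (adjusted p = 0.000705 in limma for the latter), and Ccne1 fell from 10.2 to 5.29 and rose to 7.90 (adjusted p = 0.0168). Uhrf1, with a log2 fold change of 0.63, lay above the median of this list and Dnmt1, with -0.11, below it.

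The DNA methyltransferases take their methyl group from S-adenosylmethionine, and 13 genes of its supply and recycling were tested. With RANKL 7 rose and 2 fell, beside 23.9% and 21.5% of all genes, with a median of 0.39 (all genes 0.05), and with LE 0 passed in limma (median -0.11, range -0.45 to 0.24), where 3 had an unadjusted p below 0.05 and 1 passed with voom on the recovered reads. Shmt1, which feeds the folate cycle, read 3.25 and 2.99 RPKM without RANKL, 9.89 and 10.4 with it, and 9.05 and 7.03 with LE. It rose by 1.56 on the log2 scale (limma adjusted p = 6.08e-07). Its mitochondrial counterpart Shmt2 rose by 1.21 (adjusted p = 3.94e-06). Ahcy, which clears the inhibitory by-product of methylation, went from 13.5 and 12.0 RPKM to 29.5 and 27.4 with RANKL, and read 22.8 and 18.7 with LE. It rose with RANKL (log2 fold change 1.13, adjusted p = 1.41e-05), and its change with LE of -0.45 had an adjusted p of 0.0576.

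For the TET enzymes, 14 genes of cofactor supply and related metabolism were tested. With RANKL 11 rose and 1 fell (median 0.76), beside 23.9% and 21.5% of all genes. With LE 9 fell and 1 rose (median -0.55), beside 6.86% and 5.19%. In R+LE against -R, 6 were higher and 1 was lower, beside 15.3% and 19.0% of all genes. Most of them are enzymes of the citric acid cycle. Some, such as the succinate dehydrogenase genes, neither make nor use a TET cofactor. Neither metabolites nor enzyme activity were measured. Idh3a, a subunit of the enzyme that makes 2-oxoglutarate in mitochondria, rose from 22.2 to 65.0 RPKM and fell to 37.9 with LE (log2 fold change -0.78, limma adjusted p = 0.0036). The succinate dehydrogenase genes Sdhd and Sdhb rose by 1.25 and 0.85 and changed by -0.73 and -0.88 with LE (adjusted p at most 0.00467 in limma). Slc23a2, a vitamin C transporter gene, went the other way. It read 20.6 and 22.5 RPKM without RANKL, 5.63 and 4.59 with it, then 8.06 and 8.96 with LE, a log2 fold change of -1.98 with RANKL (adjusted p = 2.87e-08) and 0.69 with LE (adjusted p = 0.00483).

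The genes that act after the TET enzymes, with their partners, gave 15 tested genes. With RANKL 3 rose and 4 fell (median 0.26), close to the 45.4% of all genes that passed, and with LE 1 rose, beside 12.0% of all genes that passed. The 3 that rose were Apex1, Neil3 and Tdg, with log2 fold changes of 0.89, 0.50 and 0.48, and Neil1 fell (-0.59). The 3 Gadd45 genes, which have been linked to DNA demethylation and stress, also fell, Gadd45g by 1.78, Gadd45a by 1.58 and Gadd45b by 1.09 on the log2 scale (adjusted p at most 3.45e-05 in limma). Gadd45g, at 7.17 RPKM in -R and 1.73 in +R, was the one that rose with LE, to 3.28 (adjusted p = 0.00785). Of the 8 genes for methyl-CpG binding proteins, 3 fell with RANKL and none rose, namely Zbtb4 (-1.30), Mbd2 (-0.66) and Mbd1 (-0.36).

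Other chromatin enzymes that use 2-oxoglutarate, the histone demethylases, gave 15 tested genes. With RANKL 4 rose and 1 fell (median 0.21), fewer than the 45.4% of all genes that passed, and with LE 1 fell, beside 12.0% of all genes that passed. Kdm5b rose by 0.55, Kdm3b by 0.47 and Kdm5c by 0.43, and Kdm2b fell by 0.88 on the log2 scale (adjusted p at most 0.026 in limma). The log2 fold changes of this list with RANKL ran from -0.88 to 0.55, beside 1.20 for Tet2. Kdm5c fell with LE from 11.2 to 8.03 RPKM (adjusted p = 0.0355).

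**Figure D5:**
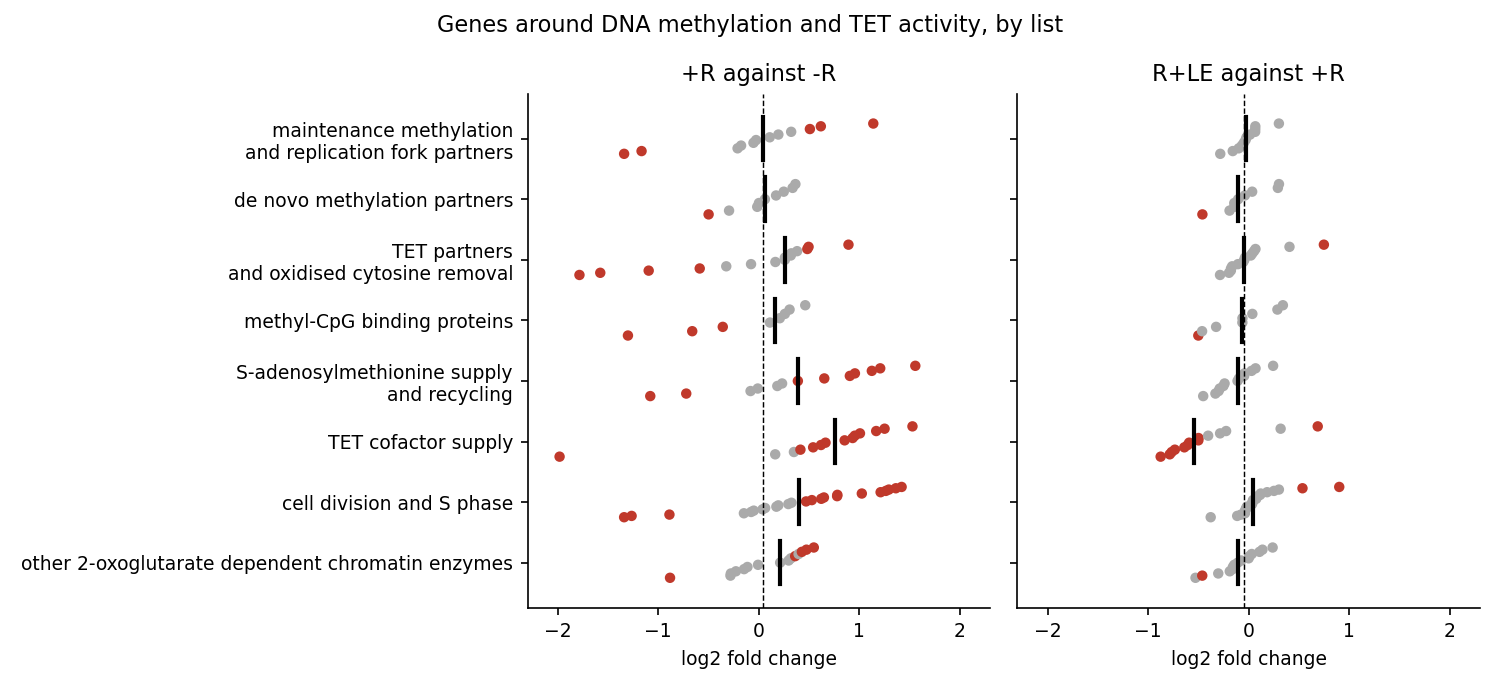
Log2 fold change (x axis) of each gene in the 8 lists, for +R against -R at the left and R+LE against +R at the right. Red points passed an adjusted p of 0.05 in limma, black bars are list medians, and the dashed line is the median of all genes tested. The list of TET cofactor supply has medians of 0.76 and -0.55.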

How the data were processed

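RNA of 6 libraries of BMMs, 2 for each of 3 conditions, was sequenced by the authors as paired ends of 100 bp. The paper names TopHat for alignment to mm10, whereas the submitters' processing notes name HISAT2, HOMER and DESeq2. Per the file header, the authors counted reads on exons, on both strands, with HOMER and kept 1 transcript for each gene, and they deposited RPKM under column titles that say FPKM. No column was left out. In the table, 26 symbols turned into dates were restored from transcript identifiers.

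Samples were grouped by their titles. limma 3.58.1 in R 4.3.3 fitted the 3 group means to log2(RPKM + 0.5) for the genes averaging 0.5 RPKM or more, with a variance trend, and Benjamini-Hochberg adjustment. A fold on this scale understates the change of low genes. Whole reads were recovered from RPKM and transcript length, with at least 99.98% of the values checked on whole steps, and depth limits Tet1 and Dnmt3b most. The libraries of a condition differed by more than counting noise (chi-square per gene of 11.8 to 26.4). The scripts were checked on simulated data. The members and gene lists were chosen with earlier results of these data known. Named genes are the members, Irf8, the nearest genes, and from each list up to 3 with the largest change with RANKL and up to 2 with LE among those passing the test. Dnmt3l, Apex1, Neil3, Tdg and Neil1 were chosen after their values were seen. Some genes that this rule selects are not reported here. Alternatives covered the pseudocount, filter, trend, scaling, samples in the fit, replicate block, voom and single libraries left out, and leaving Rn45s out of the depth and the GENCODE length of the methyltransferases were added after seeing the data. Python 3.11.15 with pandas 2.3.3 and matplotlib 3.10.9 handled tables and figures.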

Additional observations from a re-analysis of the deposited data

How the results depend on the processing

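The number of members past an adjusted p of 0.05 was 3 for RANKL alone, 1 for LE added to RANKL and 3 for both agents set against neither, and these numbers held in every alternative except that the last was 2 without either -R library, where Uhrf1 was lost (adjusted p = 0.0959 and 0.106 in limma). Over 18 changes of single members and 303 recomputed values, 294 kept their direction and their side of the threshold. The changes that turned sign had not passed the test, namely Dnmt1 in +R against -R (-0.25 to 0.0256 with single libraries left out, the highest without -R replicate 2), Dnmt3b in R+LE against -R (-0.18 to 0.0622, the highest without -R replicate 2), Tet3 in R+LE against -R (-0.17 to 0.34, the lowest without R+LE replicate 2) and Tet3 in R+LE against +R (0.0132 with median centring, 0.0225 with quantile normalization, and -0.30 to 0.22 with single libraries left out, above 0 without +R replicate 2 or R+LE replicate 1). The cause was not tested.

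The change of Dnmt3a with LE lay between -1.19 and -1.10 and its rise with RANKL between 1.74 and 1.86. The number of all genes past the threshold in R+LE against +R was 1397, and 581 with no filter. In R+LE against -R it was 3974, and it was lowest when a -R library was left out. What moved these numbers was not tested. With the GENCODE exonic length, chosen after seeing the data, the mean share of Dnmt3a among the methyltransferases was 30.6%, 63.0% and 45.2% in -R, +R and R+LE, against 21.1%, 50.7% and 33.3%, since the deposited length is longer. The GENCODE shares keep the reads counted over the deposited length, and reads outside the shorter model would make them too high. Dnmt3b was not tested with a minimum mean of 1 RPKM.

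The labels number the replicates alike in each condition, but the paired differences correlated at -0.05, 0.11 and 0.25 between conditions, so the numbers were not taken to pair the libraries. With the replicate block the numbers of members were again 3, 1 and 3, and 1792 genes passed in R+LE against +R. With voom on the recovered reads 5603 and 1766 genes passed in +R against -R and R+LE against +R.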
